A study of Mus musculus with 11 samples.

Results

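Krt7, Krt8, Krt18, Krt19, Krt23, Epcam, Sox9 and Cd24a were followed by name through 11 mouse liver sections profiled with Visium, and all 8 of these biliary and keratin genes were found among the 31053 genes counted. Keratins form heteropolymers of a type I and a type II chain. Hepatocytes carry the pair of Krt8 (type II) and Krt18 (type I), whereas bile duct epithelium carries Krt7 and Krt19 in addition. Epcam is an epithelial adhesion molecule of bile ducts, Sox9 is a transcription factor of bile ducts and of hepatocytes that take on a ductal programme, Cd24a is a membrane glycoprotein of bile ducts and of leukocytes, and Krt23 is a type I keratin reported in stressed liver. Because Krt8 and Krt18 belong to hepatocytes as well as ducts, the 8 genes do not mark a single cell type.

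The sections were 10 µm snap-frozen cuts of liver from mice that, per the study's methods, were 8 to 12 weeks old, male unless stated otherwise and fasted before treatment, with C57BL/6JCrl as the wild-type strain. Uninjured liver (0 h) gave 3 sections, numbered 2, 3 and 4. The injured sections were taken after acetaminophen (APAP), a drug that in overdose kills hepatocytes around the central vein, of which 24 h A and B, 36 h A and B, and 48 h A, B, C and D were used here. No allele, transgene or Cre was named for the groups used. The study's methods describe 1 mouse per time point for this assay and the labels name neither mouse, slide nor run, so n counts sections, p-values reflect spread among sections alone, and mouse and time cannot be told apart. Each section was 1 library of 31292663 to 67045372 UMIs (transcripts counted once by a molecular barcode) over 1490 to 3466 passing spots. A Visium spot is wider than a cell and mixes the RNA of several cells. The liver label fitted the hepatocyte list, with all 6 genes found being detected in every section. The cholangiocyte list that holds no member was sparse, from 18.1 to 23.6 CPM (UMIs per 1000000 of the TMM-scaled total) for 10 genes together, and 3 of them were too low to test.

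The members differed greatly in how many molecules stood behind each value. A section held 8466 to 69025 UMIs of Krt8 and 9565 to 72539 of Krt18. Sox9 had 85 to 689 UMIs and Cd24a 70 to 642. Counts were lower still for Krt19 (22 to 201), Krt7 (22 to 159), Epcam (31 to 115) and Krt23 (4 to 101), so only large changes of these 4 genes could be seen.

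In the GENCODE vM21 annotation of GRCm38, Krt7 lies at chr15:101411043-101430313 (plus strand), Krt8 at chr15:101996698-102004482 (minus) and Krt18 at chr15:102028180-102032027 (plus). Krt8 and Krt18 are thus divergent neighbours 23697 bp apart, although 1 is type II and the other type I. Krt19 (chr11:100140810-100148665, minus) and Krt23 (chr11:99477974-99493137, minus) lie on the chromosome that also holds Sox9 (chr11:112782224-112787760, plus). Epcam is at chr17:87635979-87651129 (plus) and Cd24a at chr10:43578284-43584265 (plus). Krt7 and Krt8 are each overlapped by an antisense gene, Gm671 and Gm36026, neither of which was a counted feature, and Krt8 has an annotated pseudogene, Krt8-ps, so reads of Krt8 shared with that copy are uncertain.

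Because Krt8 and Krt18 moved together in the counts below, the parts of their RefSeq promoter windows (GRCm38.p6, 250 bases before to 50 after the start) that lie outside annotated exons are shown 5′ to 3′ on the strand of the gene. They span chr15:102004483-102004592 for Krt8 and chr15:102027966-102028179 for Krt18. No letters are capitalised, since none of the motifs searched fell in these stretches.
Krt8: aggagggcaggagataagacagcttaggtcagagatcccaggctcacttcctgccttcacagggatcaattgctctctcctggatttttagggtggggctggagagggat
Krt18: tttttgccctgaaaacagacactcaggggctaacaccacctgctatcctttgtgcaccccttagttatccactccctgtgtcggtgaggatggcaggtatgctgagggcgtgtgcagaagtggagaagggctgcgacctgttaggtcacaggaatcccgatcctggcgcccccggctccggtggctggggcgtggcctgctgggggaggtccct
Windows were found for 5 of the 8 members (Krt7, Krt8, Krt18, Krt23 and Epcam). Both strands were searched for 5 motifs, and their frequency was taken over 32851 mouse promoter windows of this length. The core promoter motif TATAAA matched 2 times in the whole Krt8 window, and 13.6% of all windows held it. The Krt8 window also held 1 match of TGGGAA, the motif of RBPJ, through which Notch signalling acts (25.6% of windows). The GC-rich motif GGGCGG matched 4 times in Krt7 and 1 time in Epcam (35.7% of windows). TGANTCA, the AP-1 motif (7.81% of windows), and GGAATG, the motif of TEAD factors (14.7%), matched in none of the 5. These matches describe the letters only.

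To ask which members changed after APAP, UMIs were summed over the passing spots of each section and tested over all genes with edgeR. Krt8, Krt18, Sox9 and Cd24a rose at 24 h, 36 h and 48 h, whereas Krt7, Krt19, Krt23 and Epcam passed the test at no time. Thus 4 of 8 members were called at each time, all of them higher (adjusted p under 0.05, Benjamini-Hochberg over 14821 genes). Of all genes tested, 41.7% were called at 24 h, 29.2% at 36 h and 44.2% at 48 h, and 23.1%, 16.8% and 23.3% were called higher. A count of 4 among 8 members is read against these shares and is not by itself a result about the list. The same holds for a lack of overlap between injured and 0 h sections, for which the share of all genes is not given. The comparisons with 24 h, 36 h and 48 h share the same 0 h sections. In such sums, more cells of a type and more RNA per cell cannot be told apart.

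Krt8, the type II keratin of hepatocytes, measured 199, 200 and 239 CPM in the 0 h sections 2, 3 and 4. The 24 h sections A and B measured 957 and 1123 CPM, 36 h A and B measured 568 and 878, and 48 h A, B, C and D measured 999, 649, 971 and 290. Every injured section lay above every 0 h section, with 48 h D the lowest of them. Against 0 h the log2 fold change was 2.29 ± 0.42 (SE) in the 24 h group, 1.77 ± 0.41 in the 36 h group and 1.77 ± 0.37 in the 48 h group, with edgeR adjusted p of 0.00188, 0.0118 and 0.00357.

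Krt18 is the type I partner of Krt8. Its 0 h values were 217, 235 and 270 CPM, whereas 24 h A and B measured 1060 and 1127 CPM and 36 h A and B 592 and 775. In 48 h A, B, C and D the level was 900, 668, 1041 and 294 CPM. The groups did not overlap, and 48 h D was again the nearest to 0 h. In order of time the log2 fold change was 2.18 ± 0.40 (SE), 1.5 ± 0.39 and 1.59 ± 0.35, with edgeR adjusted p of 0.00179, 0.0181 and 0.00459.

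Sox9 was at 2.16, 2.37 and 2.40 CPM at 0 h. It reached 9.66 CPM in 24 h A, and 22 CPM in 24 h B was the highest value of the series. The 36 h sections stood at 4.58 and 7.50 CPM and the 48 h sections at 8.19, 9.0, 6.51 and 5.03. No injured section overlapped 0 h. The 3 log2 fold changes, earliest first, were 2.77 ± 0.35 (SE), 1.39 ± 0.36 and 1.63 ± 0.31, with edgeR adjusted p of 0.000247, 0.0171 and 0.00205. Sox9 was the only member called between 48 h and 24 h, with a log2 fold change of -1.14 (SE 0.31, adjusted p = 0.0187), where 34.1% of all genes were called and 17.8% were called lower. Without 24 h B this call was lost and no member was called. For Krt8 and Krt18 the same comparison gave -0.52 and -0.59 (adjusted p = 0.329 and 0.238), and for Cd24a -0.09 (adjusted p = 0.823).

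Cd24a measured 1.54, 2.78 and 2.26 CPM at 0 h. The injured sections stood at 7.18 and 6.99 CPM (24 h), 4.06 and 4.91 (36 h), and 7.18, 6.02, 9.21 and 4.12 (48 h). All of them lay above the 0 h sections, with 48 h C the highest. Leukocyte genes were higher in the same sections. The 5 neutrophil genes summed to 1.98 to 7.88 CPM at 0 h and 20.9 to 136 after APAP, with 4 of 4 tested called higher at each time, and the 4 mononuclear phagocyte genes to 409 to 434 and 448 to 1327, with 1, 1 and 3 of 4 called higher. No gene of either list was at 0 in any time group, and the part of leukocytes in the level of Cd24a was not tested. Its log2 fold changes were 1.69 ± 0.31 (SE), 1.03 ± 0.32 and 1.59 ± 0.28, with edgeR adjusted p of 0.00177, 0.0346 and 0.00106. At 36 h all 4 calls rested on few sections: none of the 8 members was called without 36 h B, and 1 was called without 0 h 2.

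**Figure D1:**
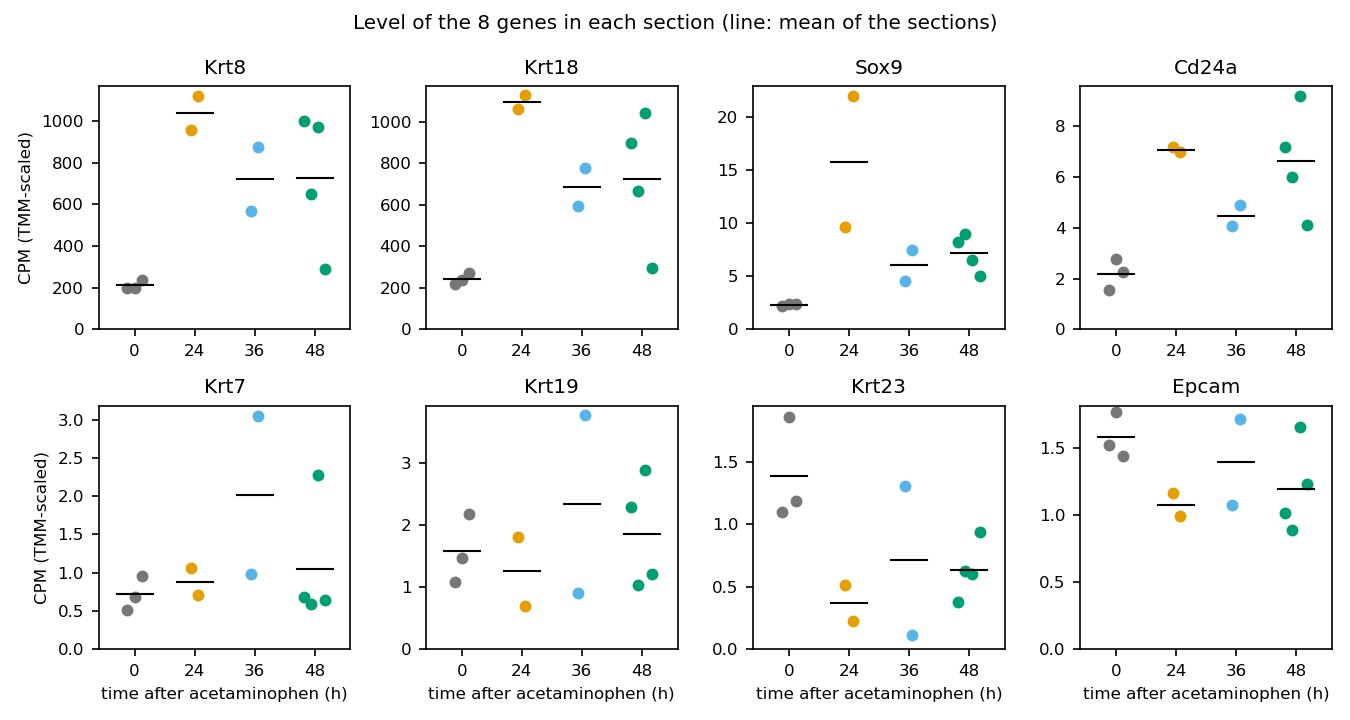
Level of each of the 8 members by section in CPM on linear axes that start at 0, each gene with its own scale, with points for sections by hours after APAP and a line at the mean of the sections. Krt8, Krt18, Sox9 and Cd24a lie higher in all 8 injured sections than in the 3 sections at 0 h, whereas the values of Krt7, Krt19 and Epcam overlap between the groups.

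The bile duct keratins gave no call. Krt7 measured 0.506, 0.681 and 0.960 CPM (0 h), 1.05 and 0.702 (24 h), 0.985 and 3.05 (36 h), and 0.680, 0.584, 2.28 and 0.636 (48 h). Krt19 measured 1.08, 1.47 and 2.17 CPM (0 h), 1.81 and 0.702 (24 h), 0.898 and 3.77 (36 h), and 2.29, 1.03, 2.88 and 1.21 (48 h). Both genes were highest in 36 h B and 48 h C, and in the other injured sections they stayed within or near the 0 h range. The log2 fold change of Krt7 was 0.32 ± 0.69 (SE), 1.51 ± 0.66 and 0.57 ± 0.57 in order of time, with edgeR adjusted p of 0.74, 0.108 and 0.442. That of Krt19 was -0.29 ± 0.66, 0.58 ± 0.64 and 0.25 ± 0.53, with adjusted p of 0.758, 0.521 and 0.728.

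The same sections stood apart in markers of another keratin-bearing layer, the mesothelium of the liver capsule. The summed level of 6 mesothelial genes (Gpm6a, Msln, Pdpn, Upk3b, Upk1b and Lrrn4) was 25.5 UMIs per 1000000 of the unscaled total in 36 h B and 18.5 in 48 h C, and 0.776 to 5.64 in the other 9 sections, with no gene at 0 in any time group. Of these genes 0 were called at 24 h and 1 of 6 (Pdpn, higher) at 36 h and at 48 h. With 36 h B and 48 h C left out, a choice made after seeing the data, the log2 fold change of Krt7 was 0.48 at 36 h and -0.17 at 48 h and that of Krt19 was -0.80 at 36 h and -0.05 at 48 h. In interior spots only, also chosen after seeing the data, Krt7 gave 1.78 at 36 h (adjusted p = 0.081). The part of mesothelial RNA in the levels of Krt7 and Krt19 was not tested further.

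Epcam ranged from 1.44 to 1.77 CPM at 0 h and from 0.886 to 1.71 after APAP. The injured range reached below the 0 h range and overlapped it in 36 h B and 48 h C. Its log2 fold change was -0.55 ± 0.32 (SE), -0.18 ± 0.31 and -0.40 ± 0.25 in order of time, with edgeR adjusted p of 0.187, 0.689 and 0.223. Krt23 measured 1.10, 1.86 and 1.19 CPM (0 h), 0.516 and 0.223 (24 h), 1.30 and 0.114 (36 h), and 0.376, 0.624, 0.603 and 0.939 (48 h). Only 36 h A lay within the 0 h range and the other 7 injured sections lay below it. The log2 fold change was -1.85 ± 0.75 (SE), -0.97 ± 0.71 and -1.12 ± 0.55, with edgeR adjusted p of 0.0705, 0.319 and 0.122. Without 36 h B and 48 h C, Krt23 was called at 24 h (-1.89, adjusted p = 0.0125) and at 48 h (-1.11, adjusted p = 0.0465), and Epcam at 48 h (-0.60, adjusted p = 0.0451), whereas no member was called at 36 h.

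**Figure D2:**
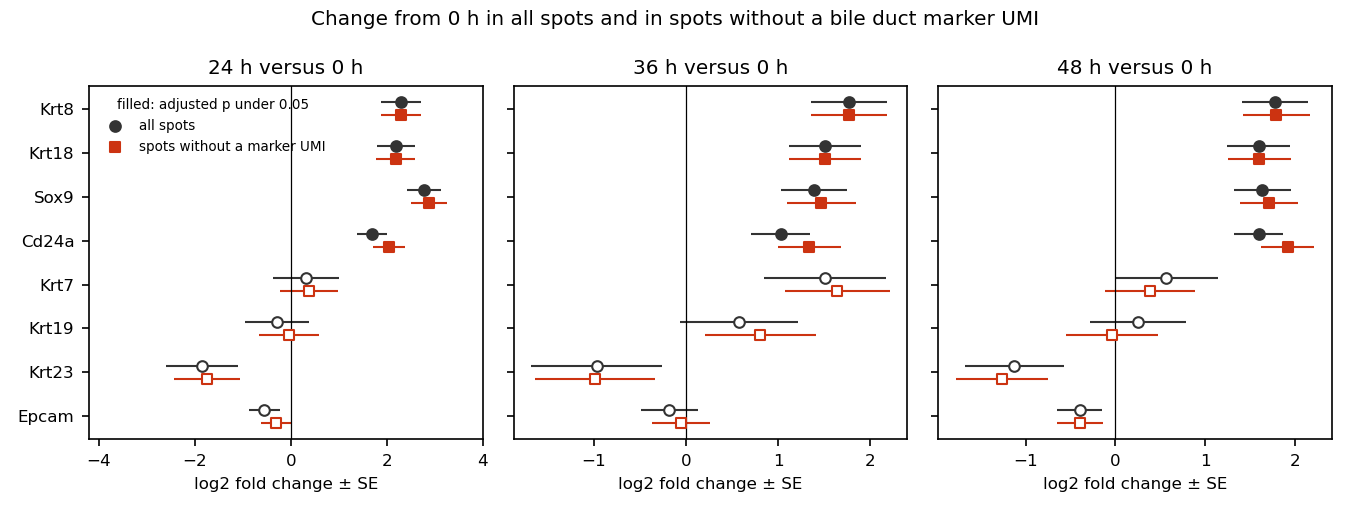
log2 fold change of each member against 0 h at 24 h, 36 h and 48 h in all passing spots and in spots with no bile duct marker UMI, with bars of 1 SE from edgeR and filled points where the adjusted p was under 0.05. Krt8, Krt18, Sox9 and Cd24a stand above 1 at each time in both sets of spots.

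Whether the 4 risen genes also rose where no bile duct marker was counted was asked by leaving out spots with such a marker. A spot was called a marker spot when it held at least 1 UMI of any of 10 bile duct genes, among them Cldn7, Pkhd1, Cftr, Tspan8, Dcdc2a, Ehf, Sctr and Fxyd3, after thinning to 5000 UMIs, which took 143 to 344 spots (8.12 to 12.7%) per section. By section they held 7.93 to 12.6% of all UMIs. For Krt8 the share was 7.66 to 11.3%, for Krt18 7.56 to 11.4%, for Sox9 7.35 to 18.6% and for Cd24a 8.68 to 35.8%. Most of the same counts were thus tested again, so the result shows only that the rise was not confined to marker spots. In the remaining spots the same 4 members were called higher at each time. There 23.2%, 16.9% and 23.6% of 14682 genes were called higher at 24 h, 36 h and 48 h. Krt8 gave log2 fold changes of 2.30, 1.77 and 1.79 and Krt18 of 2.18, 1.51 and 1.60. For Sox9 the values were 2.88, 1.47 and 1.71. Cd24a gave 2.05 (adjusted p = 0.000816), 1.34 (adjusted p = 0.0145) and 1.91 (adjusted p = 0.000506). Against all spots, the fold shifted most for Cd24a, from 1.69 to 2.05 at 24 h. Here too no member was called at 36 h once 36 h B was left out, and 1 once 0 h 2 was. Krt7 at 36 h gave 1.64 (SE 0.57, adjusted p = 0.0503). Its level there was 2.69 CPM in 36 h B, which had the highest mesothelial sum, against 0.887 CPM in 36 h A. Without 36 h B it gave 0.63 (adjusted p = 0.542) and without 36 h A 2.22 (adjusted p = 0.0137).

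When neighbours of marker spots were left out as well, Krt7 at 36 h (1.99, adjusted p = 0.0194) and Krt23 at 48 h (-1.80, adjusted p = 0.0179) were called in addition. That fit was not repeated without 36 h B. In spots without any marker UMI at full depth, an alternative chosen after seeing the data, Krt23 at 48 h gave -1.58 (adjusted p = 0.0406). A spot with no marker UMI may still hold duct cells, because the markers were sparse.

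The marker spots were then set against the other spots of the same section, over 11 sections. Krt7, Krt19, Epcam and Cd24a were higher in marker spots. The mean log2 ratio was 1.62 ± 0.54 (SD, n = 11) for Krt7 and 1.56 ± 0.82 for Krt19, higher in 11 of 11 sections each (exact sign-flip permutation test, two-sided, adjusted p = 0.00391 over the 8 members). Epcam gave 1.35 ± 0.91 (10 of 11 sections, exact permutation, adjusted p = 0.00781) and Cd24a 0.86 ± 0.91 (10 of 11, adjusted p = 0.0117). Krt8 was called slightly lower, at -0.08 ± 0.11 (2 of 11 sections higher, adjusted p = 0.0484). Its mean was 0.05 in the 0 h sections and -0.13 in the injured sections. Of 16 refits 3 kept this call, 12 kept the direction without passing and 1 changed sign. Krt18 gave -0.05, Krt23 0.57 and Sox9 0.31, none of which passed the test (adjusted p = 0.0889, 0.0586 and 0.0889). Marker spots held a median of 14974 to 28983 UMIs by section and the other spots 15401 to 30157. With at least 2 marker UMIs asked of a spot, which left 6 to 37 spots per section, only 3 sections held enough spots, so that no member could pass (smallest exact p 0.25), and the mean log2 ratio was 3.86 for Krt7, 3.89 for Krt19 and 4.14 for Epcam.

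The mesothelial genes were higher in marker spots than in other spots in 8 of 11 sections, all but 24 h A, 24 h B and 36 h A. In 36 h B and 48 h C the sums were 44.9 against 23.5 and 41.5 against 12 UMIs per 1000000, and in 0 h 2 they were 6.59 against 2.03. The marker Fxyd3 was also highest in 36 h B and 48 h C, at 3.15 and 3.51 UMIs per 1000000, against 0.564 to 1.66 in the other sections. It gave 18.7 and 19.3% of the marker UMIs there and 2.47 to 6.91% elsewhere. The part of the mesothelial genes and of Fxyd3 in the ratios was not tested.

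Cd24a changed its relation to marker spots after APAP. Its log2 ratio lay between 1.81 and 2.45 in the 0 h sections and between -0.19 and 1.10 in the 8 injured sections. The groups did not overlap, and the means of 2.12 and 0.38 differed by -1.73 (exact permutation of the labels, adjusted p = 0.0485 over 8 members). Krt18 showed a small difference in the same sense, from 0.06 to -0.10 (difference -0.16, adjusted p = 0.0485). For Krt7, Krt19 and Epcam the differences were -0.22, -0.57 and -0.77 with adjusted p of 0.57, 0.485 and 0.233.

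**Figure D3:**
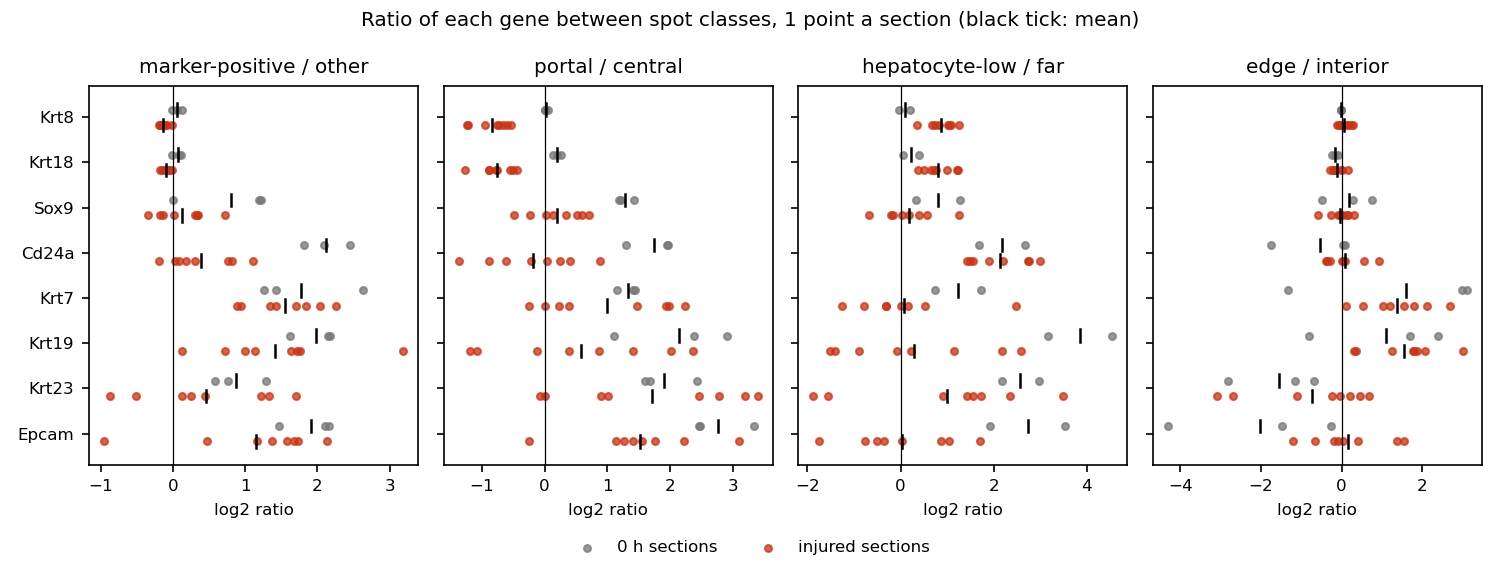
log2 ratio of each member between 2 classes of spots of the same section, with 1 point per section, for marker against other spots, portal against central spots, hepatocyte-low against far spots and edge against interior spots, with 0 h sections in grey, injured sections in red and a black tick at each mean. Krt8 and Krt18 lie below 0 in the portal against central panel and above 0 in the hepatocyte-low panel in all 8 injured sections.

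Position along the lobule was read by ranking spots on a portal minus central score, from gene lists that the study drew from its own spatial data, and cutting the ranking into 3 equal classes, of which the highest are called portal spots and the lowest central spots. At 0 h, Krt8 was level between them, with log2 portal over central ratios of 0.00, 0.00 and 0.05, and Krt18 was slightly portal at 0.14, 0.20 and 0.26. The lists themselves fell after APAP. The central genes summed to 38741 to 45075 CPM at 0 h and 10671 to 18369 in injured sections. For the portal genes the sums were 25962 to 35071 and 12685 to 18151 CPM. Spots were ranked within each section, and whether central spots of injured sections hold the same lobule position as at 0 h was not tested. After APAP, Krt8 and Krt18 were both higher in central spots in 8 of 8 sections. The ratio was -0.83 ± 0.27 (SD, n = 8; -1.23 to -0.53, median -0.74) for Krt8 and -0.75 ± 0.27 (-1.26 to -0.44, median -0.76) for Krt18, each at adjusted p = 0.0312 in the exact sign-flip permutation test. The difference between injured and 0 h sections was -0.85 for Krt8 and -0.95 for Krt18 (exact permutation, adjusted p = 0.0242).

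For Sox9 and Cd24a a portal excess at 0 h was smaller after APAP. At 0 h the ratio of Sox9 was 1.18 to 1.42 and that of Cd24a 1.29 to 1.96. In the injured sections Sox9 ranged from -0.48 to 0.70 and Cd24a from -1.37 to 0.88, so that neither overlapped its 0 h range. The means were 0.20 for Sox9 and -0.19 for Cd24a, which differed from 0 h by -1.07 and -1.92 (exact permutation, adjusted p = 0.0242 each). Within the injured sections neither passed the test between these classes (adjusted p = 0.277 and 0.516).

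Epcam and Krt23 were on the portal side after APAP, each in 7 of 8 sections, with mean ratios of 1.52 ± 0.95 (exact permutation, adjusted p = 0.0417) and 1.70 ± 1.41 (adjusted p = 0.0469). At 0 h they ranged from 2.45 to 3.33 and from 1.59 to 2.42. Krt7 (1.0, adjusted p = 0.0625) and Krt19 (0.58, adjusted p = 0.277) did not pass the test, against 0 h means of 1.33 and 2.13. Leaving out 1 injured section lowered the number of members called from 4 to 0 for 5 of the 8 sections. These were 36 h A and 48 h A, B, C and D. With any 1 section left out at most 3 members were called. Fewer sections raise the smallest p the exact test allows, but to the same value for each omission. Why only some omissions gave 0 was not tested. Krt8 and Krt18 had the same sign in all 8 sections.

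Hepatocyte-low spots were spread unevenly over these classes. These are spots scoring under the 1st percentile of uninjured spots for 6 hepatocyte genes. They name spots poor in hepatocyte transcripts and not a measured necrotic area. Of them 9.80 to 33.8% were portal spots and 18.6 to 47.1% central spots in injured sections. The central share was the larger in 24 h A, in 24 h B (47.1% against 9.80% portal) and in 36 h B. The portal share was the larger in 36 h A and in 48 h A, B, C and D. In 48 h A the portal and central shares were close (24.9 and 24.5%), whereas in 48 h C they were 33.8 and 19.9%. As an alternative chosen after seeing the data, the classes were redrawn among far spots only, at least 3 grid steps from any of these. The portal over central ratio was then -0.86 for Krt8 and -0.77 for Krt18. The part of hepatocyte-low spots in the ratio was not tested.

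In hepatocyte-low spots Krt8, Krt18 and Cd24a were higher than in far spots. Injured sections held 20 to 302 hepatocyte-low spots. The log2 ratio of hepatocyte-low over far spots was 0.87 ± 0.28 for Krt8 (0.36 to 1.26, median 0.92), 0.81 ± 0.32 for Krt18 (0.38 to 1.24, median 0.74) and 2.13 ± 0.63 for Cd24a (1.43 to 3.0, median 2.05). All 3 were higher in 8 of 8 sections (exact permutation, adjusted p = 0.0208). Without 0 h 2 the percentile shifted, 6 injured sections held enough such spots and no member passed, with Krt8 at 0.87 (exact permutation, adjusted p = 0.0833). For the other 5 members the means lay between 0.03 and 1.0, with 0 to 59 UMIs in the hepatocyte-low spots of a section, and no call. At 0 h only sections 3 and 4 held enough such spots, and gave -0.02 and 0.21 for Krt8, 0.05 and 0.40 for Krt18, and 1.68 and 2.68 for Cd24a. Of these 0 h spots 83.9 and 96.0% were portal spots, unlike those of injured sections.

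Other cell types also rose in hepatocyte-low spots. Summed UMIs per 1000000 in the hepatocyte-low spots of injured sections were 1128 to 6021 for the 4 mononuclear phagocyte genes and 72.1 to 377 for the neutrophil genes, against 467 to 990 and 20.8 to 98.9 in far spots. Since leukocytes also express Cd24a, their part in its ratio was not tested. Hepatocyte genes summed to 44655 to 67986 per 1000000 in the same spots and to 87876 to 108141 in far spots. Each class was scaled to its own total, so a ratio compares shares of RNA and not amounts per cell.

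Ring spots, which touch a hepatocyte-low spot and are not low themselves, showed smaller excesses of the hepatocyte pair. Krt8 was higher than in far spots by 0.52 ± 0.16 (0.27 to 0.69, median 0.52) and Krt18 by 0.51 ± 0.17 (0.26 to 0.79, median 0.52), in 8 of 8 sections each (exact permutation, adjusted p = 0.0208). At 0 h the same ratio was -0.06 to 0.13 for Krt8 and -0.06 to 0.23 for Krt18, and the injured sections exceeded it by 0.47 and 0.40 (exact permutation, adjusted p = 0.0485). Epcam was lower in the ring in 8 of 8 sections, at -1.41 ± 0.84 (adjusted p = 0.0208), on 0 to 20 UMIs per section. Cd24a gave 0.52 ± 0.51 (7 of 8 sections, adjusted p = 0.0625). Sox9 gave 0.07 ± 0.50.

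**Figure D4:**
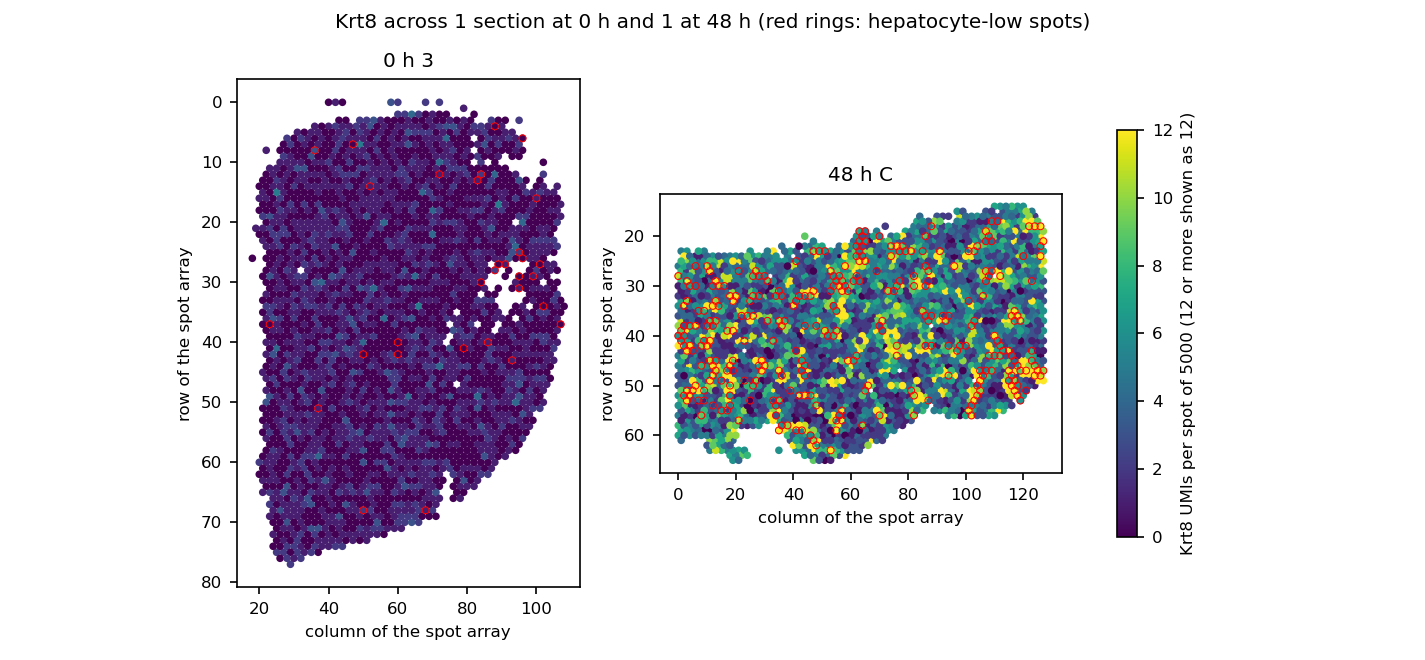
Thinned Krt8 UMIs per spot in 0 h section 3 and 48 h C, drawn at the array position of each spot, with hepatocyte-low spots ringed in red and colour for the UMIs in a spot thinned to 5000. At 48 h C the median was 8 UMIs in the 302 hepatocyte-low spots and 4 in the 2247 others, whereas in 0 h 3 it was 1 in both classes (31 and 2622 spots).

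Spots at the border of the tissue mask were then set against the others. Capsule was not annotated, so an edge spot need not lie under it. Krt7 and Krt19 were higher in edge spots (fewer than 6 neighbours under the tissue mask) than in the interior, by 1.43 ± 1.33 and 1.43 ± 1.08 on the log2 scale (n = 11), in 10 of 11 sections each, 0 h 3 being the exception (exact permutation, adjusted p = 0.0286). Krt18 was slightly lower at the edge, by -0.13 ± 0.13 (2 of 11 sections higher, adjusted p = 0.0286). Spots isolated from the tissue, which the study also removed by hand, were kept here and count as edge. The mesothelial genes summed to 2.08 to 65.2 UMIs per 1000000 at the edge and 0.641 to 22.9 in the interior. For Krt8, Krt23, Epcam, Sox9 and Cd24a the edge gave no call. These calls depended on single sections, with 0 of 8 members called without 0 h 2, without 24 h A or without 48 h D, and 0 when the edge was taken 2 spots deep. In 48 h A, 44.7% of Krt7 and 50.6% of Krt19 UMIs lay at the edge. When the edge was left out of the sums (interior spots only, chosen after seeing the data), 4 members were again called at each time.

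How widely each member was seen was measured as the share of thinned spots with at least 1 UMI. Krt8 was seen in 52.4, 53.2 and 59.0% of spots at 0 h and in 76.9 to 98.0% after APAP (median 96.4%). Krt18 was seen in 53.9, 57.2 and 63.8% and then in 77.4 to 99.2% (median 95.3%). Both shares were lowest in 48 h D among injured sections. Sox9 went from 0.622, 1.06 and 0.967% of spots at 0 h to 2.92 to 10.5% (median 4.27%), and Cd24a from 0.622, 1.21 and 0.967% to 2.34 to 4.83% (median 3.68%). For these 4 genes no injured section overlapped 0 h (exact permutation of the labels, adjusted p = 0.0242 over 8 members). How many of all genes separate the sections in this way is not given.

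The 4 other members were seen in few spots at all times. Krt7 was seen in 0.377 to 0.466% of spots at 0 h and 0.312 to 1.61% after APAP, and Krt19 in 0.466 to 0.870% and 0.371 to 1.95%. The ranges were 0.435 to 0.867% and 0.371 to 0.902% for Epcam, and 0.415 to 0.942% and 0 to 0.781% for Krt23, with adjusted p between 0.155 and 0.80. In 24 h B the share of Krt23 was 0 of 1616 spots, which allows a share of up to 0.186% at this thinned depth (3 counts) and has a Wilson upper bound of 0.237%. At full depth 0.425% of these spots held a Krt23 UMI. Without any one 0 h section the exact test could no longer pass for Krt8, Krt18, Sox9 and Cd24a (adjusted p = 0.0889). Their differences stayed between 37.2 and 40.5 percentage points for Krt8, 33.0 and 38.0 for Krt18, 3.94 and 4.15 for Sox9, and 2.35 and 2.64 for Cd24a.

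**Figure D5:**
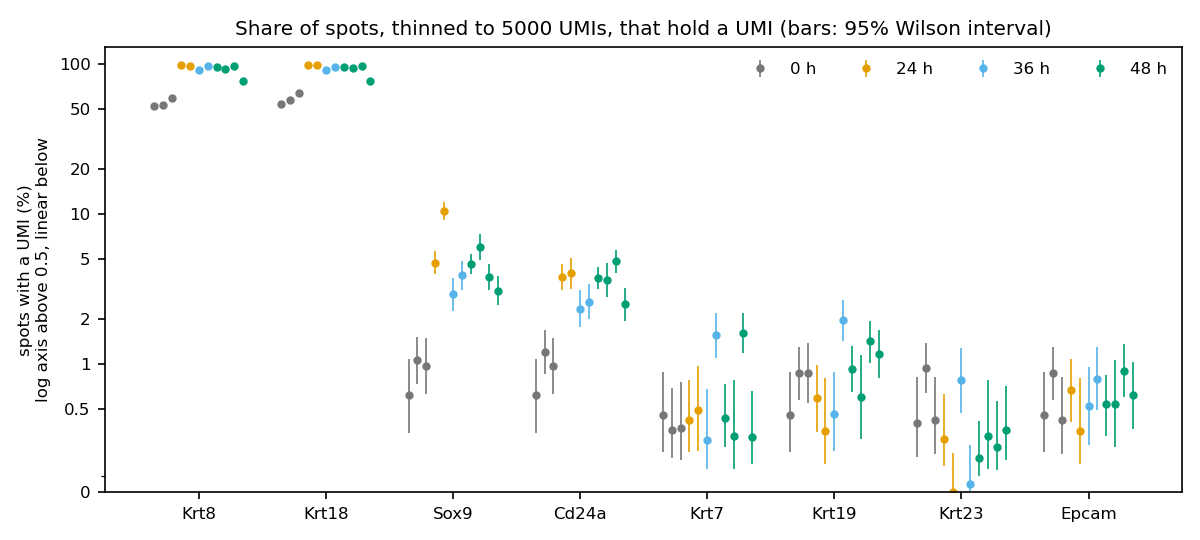
Share of spots with at least 1 UMI of each member after thinning to 5000 UMIs, in percent on an axis that is logarithmic above 0.5% and linear below, with 1 point per section coloured by time and bars for the 95% Wilson interval, which covers counting error only. Krt8 and Krt18 go from 52.4 to 63.8% of spots at 0 h to 76.9 to 99.2% after APAP, and Sox9 and Cd24a from at most 1.21% to at least 2.34%.

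For several pairs of members other than Krt8 and Krt18, spots that held 1 held the other more often than independent placement would give. Summed over sections, Krt7 and Krt19 were seen together in 16 spots, against 1.77 from the product of their shares. These spots came from 5 of the 11 sections. The pair Krt7 and Epcam was seen in 10 spots against 1.07 (7 sections) and Krt19 and Epcam in 9 against 1.52 (3 sections). Epcam and Cd24a shared 19 spots against 4.41 (7 sections). Sox9 and Cd24a shared 44 spots against 30.9 (10 sections), and Krt7 and Sox9 6 against 5.78 (4 sections). Krt7 and Krt23 shared 0 spots against 0.454. These counts are small and are given as a description.

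Genes whose counts followed a member across the spots of a section were ranked by the mean Pearson correlation over the 11 sections, as a description and with the 8 members left out of the ranking. For Krt8 the leading genes were Fth1 (mean r 0.341), Ftl1 (0.275) and Actg1 (0.229), which encode the ferritin chains and an actin. For Krt18 they were Fth1 (0.342), Ftl1 (0.25) and Igfbp1 (0.221). Krt8 and Krt18 correlated with each other at 0.278, from -0.001 to 0.516 by section. All points of a section share 1 library, and for the 6 other members no mean r exceeded 0.08.

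Genes around the members were counted by list beside the median of all genes, which was 0.05, 0.05 and 0.01 (log2 fold change) at 24 h, 36 h and 48 h. Of 48 other keratins only 3 were high enough to test. Krt80 measured 0.345 CPM at 0 h and 1.54 at 48 h and was called at 36 h and 48 h (2.19 at 48 h, adjusted p = 0.00105). Krt5, a keratin of basal epithelium, had no UMI in any 0 h section and averaged 1.86 CPM at 24 h (1.37 and 2.34), 0.987 at 36 h (0.377 and 1.60) and 1.26 at 48 h (0.0722 to 2.23). By the mean of the sections it was therefore at least 83.7-fold, 44.5-fold and 56.9-fold higher, counted against 3 UMIs over the 0 h sections together. At 36 h the bound was 17-fold from the section with the lower value alone and 72-fold from the other. At 48 h it was only 3.26-fold from the lowest section alone and 100-fold from the highest. Krt10 gave -0.03 at 48 h and no call, and the median of the list was 1.16, 1.97 and 2.19.

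Of 7 other intermediate filament genes tested, 6 were called higher at 24 h, 5 at 36 h and 7 at 48 h, with a median log2 fold change of 1.40, 1.22 and 1.38, where 23.1%, 16.8% and 23.3% of all genes were called higher. The 7 mesenchyme genes, which share Des with this list, summed to 250 to 286 CPM at 0 h and 674 to 1469 at 48 h, with 3, 6 and 6 of 7 called higher and 1, 1 and 0 lower at the 3 times. Their part in the filament genes was not tested. At 48 h Vim, the filament of mesenchymal cells, gave 3.15, Synm 2.44, and the lamins Lmnb1 and Lmna 2.17 and 1.38. Desmosome and cytolinker genes, to which keratin filaments attach, were mostly not called, with 3, 4 and 2 of 9 higher and 1, 0 and 1 lower at the 3 times (median 0.25, 0.42 and 0.04). At 48 h the cytolinker Ppl gave 1.17 and Jup 0.35, whereas the desmosomal cadherin Dsg2 gave -0.59. Of 8 Notch pathway genes, 6, 4 and 6 were called higher and none lower (median 0.52, 0.82 and 1.08). At 48 h the Notch targets Hey1, Hes1 and Heyl gave 1.98, 1.85 and 1.52 and the receptor Notch3 1.11, and Hey1 stood at 3.49 at 24 h.

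Other genes of bile ducts were called in both directions. Of 16 tested, 3, 4 and 5 were called higher and 2, 2 and 1 lower in order of time (median -0.21, 0.11 and 0.15). Among all genes tested, 23.1%, 16.8% and 23.3% were called higher and 18.6%, 12.4% and 20.9% lower. Beside these shares the counts are not by themselves a result about the list. The highest at 48 h were Spp1 (2.41), a secreted matrix protein also made by macrophages, Ddr1 (2.27), a collagen receptor, and Bicc1 (1.75). Among the 10 genes that defined the marker spots, 7 were tested and only Dcdc2a was called, lower at each time (-1.30 at 48 h, adjusted p = 0.00414), with a list median of -0.39, -0.09 and -0.03.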

How the data were processed

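Polyadenylated RNA of 11 mouse liver sections was measured with the Visium 3' assay. Per the labels and the study's methods, the authors used Space Ranger 1.0.0 and Seurat 4.1.1 with mm10 and Ensembl gene models. The deposited matrices held raw UMI counts for 31053 genes and 4992 barcodes per section, on and off tissue, and the authors' tissue mask and array positions came with them. Images played no part.

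The study's numeric spot filter (under the mask, 800 or more genes, 20% or less mitochondrial UMIs) left 25136 spots. The removal of isolated spots by hand in the study's methods was not repeated. Median UMIs per spot ranged from 15169 to 29950 by section. UMIs were summed per section and tested with edgeR 4.0.16 in R 4.3.3 (filterByExpr, TMM, robust quasi-likelihood, 14821 genes, all 11 sections in 1 fit, common biological coefficient of variation 0.194). All p-values were two-sided, adjusted by Benjamini-Hochberg over the genes tested, and judged at 0.05. The steps were tested on simulated data. Some results are not reported here.

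To define spot classes, spots were subsampled to 5000 UMIs (seeded), which left out 1 to 260 shallower spots per section. Class ratios were log2 of (UMIs + 0.5)/total, taken from unthinned counts within a section and tested by exact permutation over sections (smallest p 0.00781 for 8 sections, 0.000977 for 11 and 0.0121 for 3 against 8). Classes with under 20 spots gave no value. Python 3.11.15, numpy 2.4.6 and scipy 1.17.1 were used.

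The members and gene lists were chosen with earlier results of these data known. Named genes were the 8 members, the 3 genes most correlated with each across spots (at least 500 thinned UMIs in every section), and up to 4 genes per list with the largest log2 fold change at 48 h among those called, besides defining markers. Krt10, and the 24 h value of Hey1, were added after their values were seen. No 2 sections looked like 1 library deposited again (chi-square per gene 42.2 to 226 within groups). Section letters were tested for pairing, and other scalings, filters, depths, class definitions and omitted sections were tried as alternatives.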

Additional observations from a re-analysis of the deposited data

Results flagged for a closer look

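Among 56 groups of 4 to 8 sections examined for a section far from the others, 4 were found, and chance alone gives about 1 in 20. Krt7 in 48 h C, at 2.28 CPM, lay far above the other 48 h sections (0.584 to 0.680 CPM), and 48 h C also held the highest mesothelial sum of its group. Among the injured sections, which span 3 times, 48 h D was far below the others in the share of spots with a UMI of Krt8 (76.9%) and of Krt18 (77.4%). The share for Sox9 in 24 h B, 10.5%, was far above the others.

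For 8 members or pairs of classes the ratio differed between injured and 0 h sections by the exact permutation test (3 against 8, adjusted over 8 members). Between marker and other spots the injured minus 0 h difference was -0.16 for Krt18 and -1.73 for Cd24a (adjusted p = 0.0485). Between portal and central spots it was -0.85 for Krt8, -0.95 for Krt18, -1.07 for Sox9 and -1.92 for Cd24a (adjusted p = 0.0242). Between ring and far spots it was 0.47 for Krt8 and 0.40 for Krt18 (adjusted p = 0.0485).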

How the results depend on the processing

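Of 715 refits of the 47 member comparisons that passed their test, 602 kept direction and call, 112 kept direction without passing, and 1 changed sign (Krt8 in marker spots, 0.24 with Spp1 added to the markers). Of 885 refits of the 57 that had not passed, 771 kept direction and stayed uncalled, 44 passed and 70 changed sign. Unless a value below shows it, the cause of a change was not tested. For the 4 sparse members depth limits what could be seen, and exact tests over 6 or 7 sections cannot reach the smallest p of 8.

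Scaling to total counts in place of TMM raised the median log2 fold change of all genes by 0.37 at 24 h, 0.49 at 36 h and 0.54 at 48 h. Under it, Krt19 at 24 h gave 0.046, Epcam 0.25 at 36 h and 0.13 at 48 h, and Cd24a 0.11 for 48 h against 24 h. Outside marker spots it gave 0.30 and 0.50 for Krt19 at 24 h and 48 h, and 0.027, 0.38 and 0.13 for Epcam at 24 h, 36 h and 48 h.

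Section letters did not pair the sections (correlations of their deviations from -0.24 to 0.29). With the letter as a replicate block among injured sections, 0 members were called for 48 h against 24 h, Krt7 gave -0.50 and Epcam -0.18.

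With neighbours of marker spots left out, Krt19 gave 0.28 at 24 h and 0.091 at 48 h. In spots with no marker UMI at full depth, an alternative added after seeing the data, it gave 0.056 and 0.25, and Epcam gave 0.16 at 24 h and 0.40 at 36 h.

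With 36 h B and 48 h C left out, also added later, 0 members were called at 36 h, between portal and central, hepatocyte-low and far, ring and far, and edge and interior spots. Krt19 then gave -0.80 at 36 h and -0.050 at 48 h, Krt7 -0.17 at 48 h and -0.45 for 48 h against 24 h, Epcam -0.012 for 48 h against 24 h, and Sox9 -0.0096 in the ring.

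Between marker and other spots 5 members were called, against 0 with at least 2 marker UMIs (6 to 37 spots per section, 3 sections usable, where the exact test cannot pass), 3 after thinning to 10000 UMIs and 8 with Spp1 added, where Krt18 gave 0.27. With hepatocyte-low spots taken at the 5th percentile, 5 members were called in the ring, and Krt7, Krt19 and Epcam gave -0.49, -0.67 and -0.13 in hepatocyte-low spots. Thinned to 10000 UMIs, those spots gave -0.19, -0.70 and -0.61 and Sox9 -0.075, and the share of Epcam differed by -0.17 percentage points. With the edge 2 spots deep, 0 members were called and Sox9 gave -0.079.

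Leaving out 1 section at a time, members called ranged from 0 (without 36 h B) to 5 at 36 h and from 0 to 6 there outside marker spots, from 0 (without 24 h B) to 1 for 48 h against 24 h, from 0 to 3 between portal and central spots, from 0 (without 0 h 2) to 3 in hepatocyte-low spots, from 0 to 4 at the edge, and from 0 (without any 0 h section, where even the smallest exact p did not pass after adjustment) to 5 for shares of spots. For log2 fold changes the ranges were -0.015 to 0.57 for Krt7 and -1.15 to 0.20 for Krt19 at 24 h, -0.80 to 1.26 for Krt19 and -0.56 to 0.11 for Epcam at 36 h, and -0.16 to 0.81 for Krt7 and -0.044 to 0.53 for Krt19 at 48 h. Against 24 h the 48 h values ranged from -0.48 to 0.58 for Krt7, from -0.045 to 0.27 for Epcam and from -0.30 to 0.079 for Cd24a. Outside marker spots they were -1.08 to 0.51, -0.61 to 1.5 and -0.32 to 0.24 for Krt19 at 24 h, 36 h and 48 h, -0.52 to 0.29 for Epcam at 36 h and -0.18 to 0.55 for Krt7 at 48 h. In hepatocyte-low spots they were -0.28 to 0.34 for Krt7, -0.13 to 0.54 for Krt19, -0.20 to 0.29 for Epcam and -0.069 to 0.30 for Sox9, and in the ring -0.056 to 0.14 for Sox9. At the edge they were -0.054 to 0.080 for Sox9 and -0.20 to 0.069 for Cd24a, and the share of Epcam differed by -0.045 to 0.17 points.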
